A study of Oryctolagus cuniculus with 134 samples.

Results

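The tricuspid valve of rabbits fed cholesterol and irradiated over the heart (IR/CHT) was compared with that of rabbits kept on chow (Ctrl). The comparison took every library whose column carries the tricuspid valve (TV) code and 1 of these treatments, which gave 7 IR/CHT and 7 Ctrl libraries, 14 of the 134 libraries of the study. RNA of the aorta and of 4 heart valves had been sequenced from male New Zealand White rabbits under 4 treatments. All animals entered the protocol at 12 weeks of age and were followed for 16 weeks. Ctrl rabbits ate chow and received no vitamin D2. IR/CHT rabbits ate a 0.3% cholesterol diet, received vitamin D2 for 15 days at 25000 units a day per 2.5 kg of body weight, and were given 24 Gy to the heart as 3 fractions of 8 Gy at intervals of 48 hours, after 8 weeks of diet. The CHT rabbits had the same diet and vitamin D2 without irradiation. Lard rabbits ate a diet with 5% lard and had the same vitamin D2, and their 7 tricuspid libraries entered the model, its filter and its estimate of spread but no contrast. Diet, vitamin D2 and irradiation therefore cannot be told apart in a comparison of IR/CHT with Ctrl. The field was centred on the aortic valve and thoracic aorta, and the sources used here give no dose for the tricuspid valve.

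The tricuspid valve separates the right atrium from the right ventricle. Its leaflets are built by interstitial fibroblasts in collagen and proteoglycan, covered by endothelium and attached to heart muscle. Cells sense their sterol content through 2 opposed systems. When membrane cholesterol is low, SREBP2 turns on the enzymes of sterol synthesis and lipoprotein uptake. When oxysterols build up, the liver X receptors (LXR) turn on cholesterol efflux. Macrophages that take up more lipoprotein cholesterol than they can export become foam cells, the hallmark of atheroma.

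The 14 libraries held between 14866435 and 21754353 counted reads. At the lowest depth, a gene at 1 CPM, the count scaled to a common library size, stood on 14.9 reads, for which counting error alone is 25.9%, and a gene at 10 CPM on 149 reads, for which it is 8.2%. One Ctrl library, L168, stood apart from the others of its group. In L168, 7116 of 14700 tested genes (48.4%) lay more than 2-fold from the mean of the other 6 Ctrl libraries. Next came the IR/CHT library L197, with 3839 genes (26.1%) more than 2-fold from the rest of its own group. In the other 12 libraries the number ran from 777 to 2677. Across genes, the deviation of L197 from its group and that of L168 from its group correlated with r = 0.74, a description of 2 libraries. The CHT library L172 had r = 0.649, with 20.6% of genes more than 2-fold from its group, and Ctrl L159 had r = -0.655. For Ctrl libraries a negative r is in part built in, since L168 belongs to the mean from which they deviate. All 6 were negative, from -0.655 to -0.172. L168 and L197 stand in the deposited table named plate 2, which held 2 of the 7 Ctrl and 3 of the 7 IR/CHT libraries, and L172 and L159 in that named plate 1. What the plates were is not given in the sources used here.

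**Figure D1:**
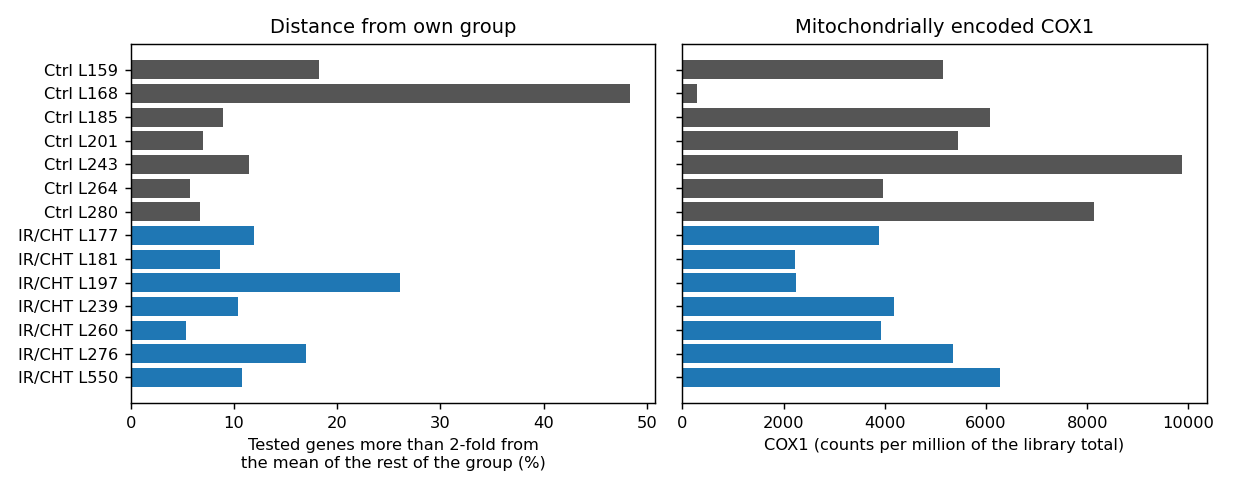
Left, the percentage of 14700 tested genes that lay more than 2-fold from the mean of the other libraries of the same group, for each of the 14 tricuspid valve libraries. Right, COX1, a mitochondrially encoded gene, in CPM of the library total. Ctrl L168 stands at 48.4% and IR/CHT L197 at 26.1%, and COX1 was 287 in L168 against at least 2220 in every other library shown.

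Several matrix genes were far higher in L168, and heart muscle genes were lower. COL1A1, the main chain of type I collagen, was at 8540 CPM in L168 and at 360 to 515 CPM in the other 6 Ctrl libraries. LTBP2, a microfibril-associated protein, was at 2880 CPM against 43.3 to 107 CPM. CSPG4, a proteoglycan of pericytes, was at 347 CPM against 3.96 to 8.19 CPM. L197 was the highest IR/CHT library for all 3 of these genes, with COL1A1 at 2650 CPM and LTBP2 at 706 CPM. Cardiac actin ACTC1 was at 39.1 CPM in L168 and at 1020 to 3490 CPM in the other Ctrl libraries. The summed level of the 27 heart muscle markers found was 1270 CPM in L168 and at most 53300 CPM among Ctrl libraries. The 15 valve interstitial markers found summed to 44500 CPM in L168, with a Ctrl median of 21300 CPM. The 12 endothelial markers found summed to 642 CPM in L168, 761 CPM in L197 and 412 CPM in L276, an IR/CHT library, and to at least 1258 CPM in the other 11 libraries. The part of tissue make-up in these differences was not tested, and in bulk RNA fewer cells of a type cannot be told apart from less RNA per cell. The comparison with Ctrl is given with all libraries, without L168, and without L168 and L197. The last choice was made after seeing the data.

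A differentially expressed gene (DEG) is here a gene with more than a 1.5-fold difference and an edgeR adjusted p under 0.05. With all libraries there were 34 DEGs. Of 14700 tested genes, 16 were higher in IR/CHT (0.109%) and 18 were lower (0.122%). Without L168 there were 985 DEGs, of which 817 were higher (5.59% of 14614 tested) and the others lower (1.15%). Without L168 and L197, 113 genes were higher (0.777% of 14550 tested) and 40 were lower (0.275%). All 34 DEGs of the full set were also DEGs without L168, and 33 of them were DEGs without L168 and L197. Of the 985, 15.4% were called again once L197 was also left out.

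The number 985 moved with single libraries of either group. Leaving out a Ctrl library as well gave 133 (L159), 140 (L185), 387 (L264) or 405 (L201), and leaving out L243 left 1.16% of tested genes called. Leaving out an IR/CHT library gave 388 for L276, 1605 for L550 and 1734 for L239. Within plate 1, which holds 5 Ctrl and 4 IR/CHT libraries, there were 300 DEGs. Within plate 2, with 2 and 3, there were none, but its 2 Ctrl libraries are L280 and L168. Plate 2 was not run without L168. ABCA1 and CYP51A1, described below, had log2 fold changes of 3.09 and -1.25 within plate 2.

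**Figure D2:**
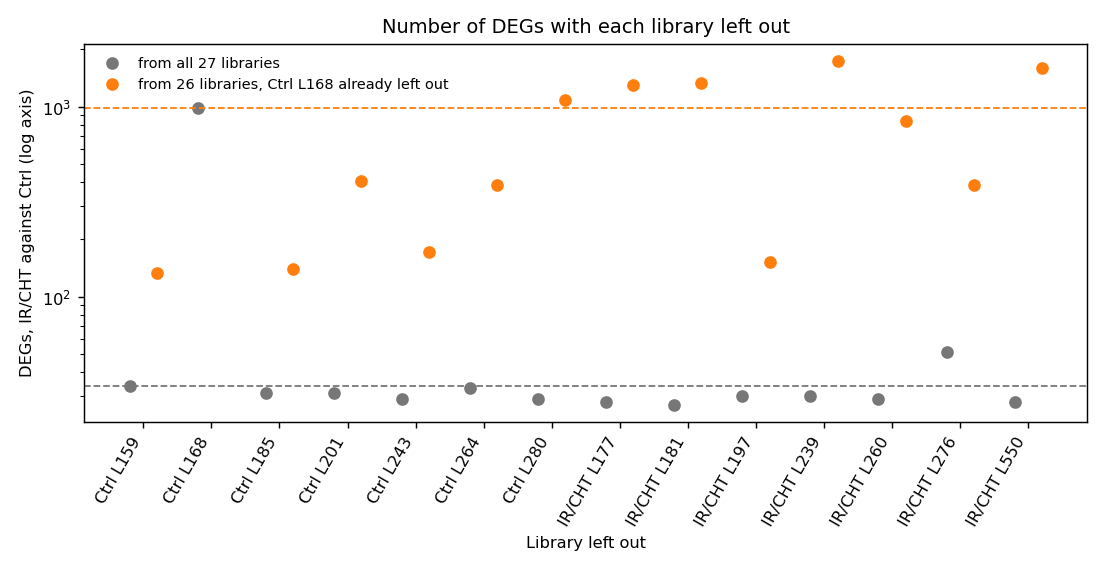
DEGs between IR/CHT and Ctrl tricuspid valves, on a log axis, when the library named on the horizontal axis is left out, starting from all 27 tricuspid valve libraries (grey) or from 26 with Ctrl L168 already left out (orange), with dashed lines at 34 and 985. The grey points lie between 27 and 51 except for 985 without L168, whereas the orange points spread from 133 to 1734.

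Sterol synthesis genes fell in irradiated cholesterol-fed valves, with and without L168. Of 14 tested genes of the list, 7 fell with all libraries, 10 fell without L168, and 9 fell without L168 and L197, and none rose. Of all tested genes, 0.122%, 1.15% and 0.275% fell in these sets. The median log2 fold change of the list was -1.0, -0.97 and -0.98 in these sets, while the median over all tested genes was -0.02, 0.02 and 0.02. The summed level of the list ran from 304 to 480 CPM in Ctrl with a median of 378, and every IR/CHT library lay below every Ctrl library. Heart muscle and respiratory chain genes were also at lower levels in IR/CHT by their median log2 fold change. The 26 heart muscle markers tested had medians of -0.85, -1.02 and -0.95, with 2 of 26 above 0 and no DEG in each set. The 21 respiratory chain genes tested had medians of -0.60, -0.73 and -0.72, with none above 0, and 0, 6 and 0 of them fell. Their summed levels overlapped between groups, and their part in the sterol result was not tested.

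CYP51A1, the lanosterol demethylase, ran from 30.4 to 50.8 CPM in Ctrl with a median of 37.6, and from 12.2 to 18.4 CPM in IR/CHT with a median of 14.6. The groups did not overlap. L168, at 31.8 CPM, was inside the Ctrl range, and L197 was the lowest IR/CHT library. The log2 fold change was -1.44 ± 0.15 (SE, n = 7 and 7), with an edgeR adjusted p of 1.47e-06. MSMO1, a sterol C4 demethylase, ran from 6.42 to 22.9 CPM in Ctrl and from 2.48 to 5.07 CPM in IR/CHT. Its lowest Ctrl value was L168, which still lay above every irradiated valve. The log2 fold change was -2.26 ± 0.24 with all libraries and -2.39 ± 0.21 without L168.

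SQLE, the squalene epoxidase, ran from 12.4 to 31.8 CPM in Ctrl and from 3.68 to 6.59 CPM in IR/CHT, again without overlap (-2.03 ± 0.25, edgeR adjusted p = 3.13e-05). HMGCS1, which makes HMG-CoA early in the pathway, had medians of 41.6 CPM in Ctrl and 13.6 CPM in IR/CHT. L168, at 13.7 CPM, was the only Ctrl library inside the IR/CHT range of HMGCS1, which ended at 15.3 CPM. Leaving L168 out took the edgeR adjusted p of HMGCS1 from 7.05e-05 to 6.41e-08. FDFT1, the squalene synthase, showed the same pattern, with L168 at 36.1 CPM and the other Ctrl libraries at 84.3 to 141 CPM. SC5D, a late desaturase, was called only once L168 was left out (-0.90 ± 0.16, adjusted p = 0.00372 by edgeR, against 0.144 with all libraries).

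**Figure D3:**
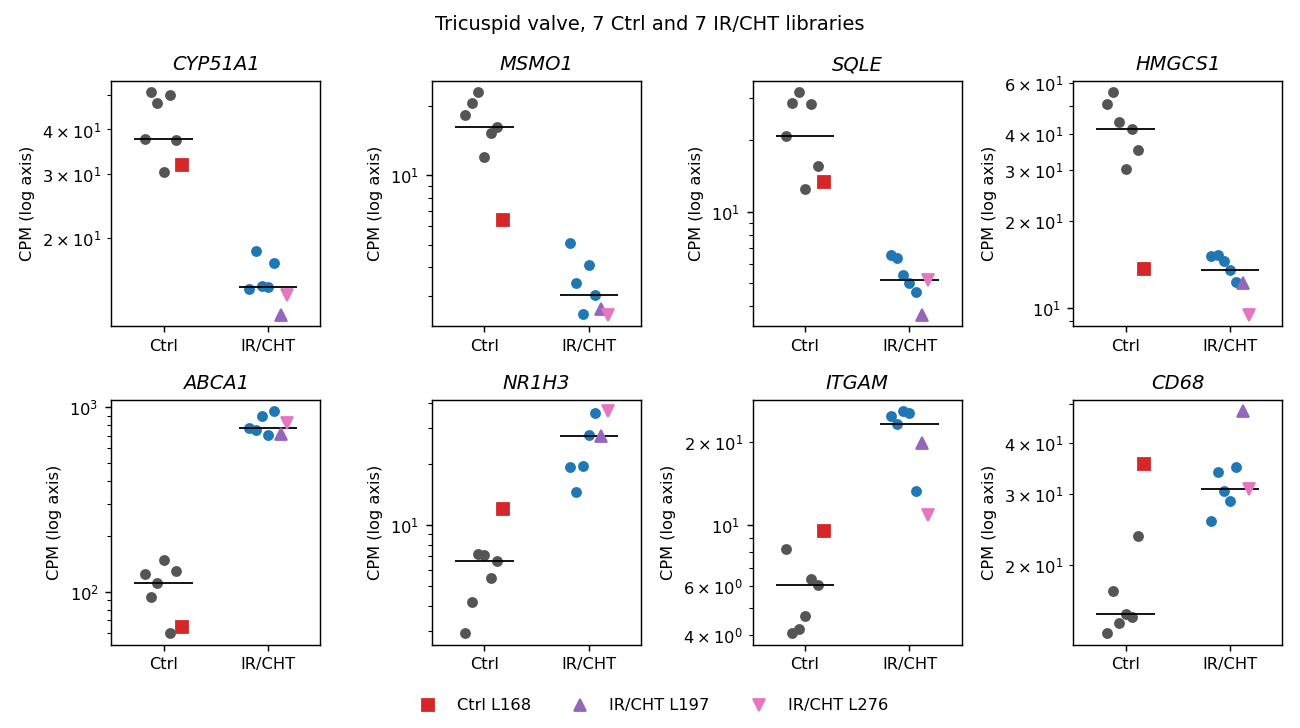
CPM, on log axes, of 4 genes of sterol synthesis (top) and of 4 genes of cholesterol efflux and macrophages (bottom) in the 7 Ctrl and 7 IR/CHT tricuspid valve libraries. Each point is 1 library, the bar is the group median, and L168, L197 and L276 have their own symbols. The groups do not overlap for CYP51A1, MSMO1, SQLE, ABCA1, NR1H3 or ITGAM, and they overlap through L168 for HMGCS1, at 13.7, and for CD68, at 35.5.

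Among genes of sterol uptake and its control, 3 of 9 tested fell and 1 rose in each of the 3 sets. INSIG1, which holds SREBP in the endoplasmic reticulum and is itself an SREBP target, had medians of 34.1 CPM in Ctrl and 9.72 CPM in IR/CHT. STARD4, a cytosolic sterol carrier, had medians of 6.54 and 2.78 CPM. MYLIP, an LXR-induced ubiquitin ligase that limits lipoprotein uptake, rose, from 71.1 to 137 CPM in Ctrl to 98.1 to 216 CPM in IR/CHT (0.88 ± 0.16, edgeR adjusted p = 0.00545). L197, the lowest irradiated valve, was the one inside the Ctrl range.

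LXR targets rose in part. Of 7 tested, 3 rose with all libraries and 5 rose in both reduced sets, and none fell. Of all tested genes, 0.109%, 5.59% and 0.777% rose in the 3 sets. The list's median log2 fold change was 1.30 with all libraries, 1.90 without L168 and 1.53 without L168 and L197. ABCA1, the transporter that exports cholesterol to apolipoprotein A-I, had the lowest p of all tested genes. It ran from 59.5 to 148 CPM in Ctrl and from 707 to 958 CPM in IR/CHT, a log2 fold change of 2.94 ± 0.21 (edgeR adjusted p = 2.36e-09). NR1H3, which encodes LXRα, ran from 2.92 to 12.0 CPM in Ctrl and from 14.5 to 36.5 CPM in IR/CHT. The Ctrl library nearest to the irradiated valves was L168. PLTP, the phospholipid transfer protein, ran from 33 to 68.2 CPM in the Ctrl libraries other than L168 and from 126 to 360 CPM in IR/CHT. L168 lay 2.23 above the other Ctrl libraries on the log2 scale, inside the IR/CHT range. Its edgeR adjusted p was 0.198 with all libraries and 0.000426 without L168.

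APOD, LIPG and TIMD4 were among the DEGs of lowest p. APOD, a lipocalin that binds lipids, had medians of 75.8 CPM in Ctrl and 1460 CPM in IR/CHT, with the highest Ctrl library, L168, at 395 CPM and the lowest IR/CHT library at 699.98 CPM (log2 fold change 3.55 ± 0.60, adjusted p = 0.00276 by edgeR). LIPG, endothelial lipase, had at most 3 reads in any Ctrl library and ran from 0.402 to 5.97 CPM in IR/CHT. TIMD4, a phosphatidylserine receptor of resident macrophages, had at most 8 reads in any Ctrl library and ran from 1.35 to 7.18 CPM. Both passed the edgeR test, with adjusted p of 0.00386 and 0.00905, and no fold is given because most Ctrl libraries held no read. Genes of fatty acid synthesis, which SREBP1 and LXR also control, held no DEG among 8 tested in any of the 3 sets, and their median log2 fold change was 0.03 with all libraries.

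Some macrophage markers rose, and L168 weighed on how many passed. Of 15 tested, 2 rose with all libraries, 10 rose without L168 and 7 rose without L168 and L197. None fell, and 0.109%, 5.59% and 0.777% of all tested genes rose in these sets. The list's median log2 fold change was 0.71, 0.74 and 0.72. The summed level of the 16 macrophage markers found overlapped between groups, from 627 to 902 CPM in Ctrl and from 562.4 CPM, in L276, to 1140 CPM in IR/CHT. ITGAM, the integrin alpha M chain of myeloid cells, ran from 4.04 to 9.53 CPM in Ctrl and from 10.9 to 26 CPM in IR/CHT without overlap (1.74 ± 0.24, edgeR adjusted p = 0.000197). CD14, the lipopolysaccharide co-receptor, had medians of 9.16 and 18.6 CPM and overlapped through 1 irradiated valve, since the lowest irradiated valve was at 8.59 CPM and the highest Ctrl at 9.66 CPM. Its call ended without L177 or without L181, with edgeR adjusted p of 0.0549 and 0.0501. MPEG1, a pore-forming protein of phagocytes, had medians of 9.66 and 47.2 CPM (2.03 ± 0.25, edgeR adjusted p = 4.22e-05).

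For CD68, a lysosomal glycoprotein of macrophages, the call turned on L168. The other 6 Ctrl libraries ran from 13.5 to 23.6 CPM and L168 stood at 35.5 CPM, whereas IR/CHT ran from 25.6 to 48.2 CPM. The log2 fold change was 0.80 ± 0.19 with an edgeR adjusted p of 0.0895, and 1.03 ± 0.16 with 0.000947 once L168 was left out. After L197, the highest irradiated valve, was also left out, it was 0.92 with an adjusted p of 0.00177 by edgeR. GPNMB, a lysosomal protein of lipid-laden macrophages, gave 1.45 ± 0.43 (0.235) and 1.96 ± 0.40 (0.00924) in the first 2 of these sets, where the numbers in brackets are edgeR adjusted p. CD163, a scavenger receptor of resident macrophages, had medians of 79.2 and 95.2 CPM with an edgeR adjusted p of 0.999.

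Complement and antigen presentation genes were called in the reduced sets. Of all tested genes, 0.109% rose with all libraries, 5.59% without L168 and 0.777% without L168 and L197. No complement gene of 11 tested was called with all libraries, while 7 rose without L168 and 5 rose without L168 and L197. These 5 were CFP (properdin), and C1QA, C1QC, C1R and C1S, subunits and proteases of the first component. The last 4 were named after their values were seen, and C1QA and C1QC also stand in the macrophage list. CFP ran from 3.65 to 4.78 CPM in IR/CHT and from 0.669 to 1.59 CPM in the 6 other Ctrl libraries, with L168 at 3.81 CPM. Of 7 tested MHC class II genes, 0, 3 and 1 rose in the 3 sets. HLA-DMA, which loads peptides, was the 1 in the last set (log2 fold change 1.23, edgeR adjusted p = 0.0262). Of 18 interferon response genes, 1, 4 and 2 rose, beside the shares of all tested genes given above. OASL, an interferon-induced antiviral protein, ran from 0.0563 to 0.63 CPM in Ctrl and from 0.657 to 1.74 CPM in IR/CHT, which was at most 32 reads a library. Its call ended without L239 (edgeR adjusted p = 0.0515).

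Few foam cell and lysosome genes passed in this valve. None of 20 was called with all libraries, 3 rose without L168 (OLR1, CTSB and GPNMB) and 1, GPNMB, rose without L168 and L197. Of all tested genes, 0.109%, 5.59% and 0.777% rose in these sets. SPP1, osteopontin, had medians of 47.5 CPM in Ctrl and 38.9 CPM in IR/CHT (edgeR adjusted p = 0.998). Chemokines and their receptors had no DEG among 10 tested genes in any set. CCL2, a monocyte chemokine, had medians of 4.67 and 5.40 CPM, with L197 at 18.1 CPM. Among neutrophil markers, 2 of 5 tested rose in both reduced sets, and LTF was at most 3.1 CPM in any of the 14 libraries. The part of blood in this result was not tested. Without L168 the median log2 fold change was 1.84 for the 2 red blood cell markers tested in that set, with no DEG. It was 1.09 for the 3 platelet markers tested, with 1 DEG. The libraries highest for the sum of neutrophil markers, L168 (33.5 CPM), L197 (30.2 CPM) and L177 (23.3 CPM), were also the 3 highest for red blood cell markers (61.4, 80.0 and 62.2 CPM) and platelet markers (31.2, 24.0 and 42.9 CPM). T cell and B cell lists had 2 and 3 genes above the filter and no DEG.

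Targets of p53, which DNA damage switches on, had no DEG among 18 tested genes with all libraries and none without L168 and L197, with medians of 0.01 and 0.21 on the log2 scale. Without L168 alone, 1 of the 18, XPC, a DNA damage sensor named after its value was seen, rose (edgeR adjusted p = 0.0458), a share like the 5.59% of all tested genes that rose in this set. The 2 genes of the list with the lowest p with all libraries were RRM2B (log2 fold change -0.35 ± 0.13) and BTG2 (0.78 ± 0.29), both with an edgeR adjusted p of 0.425. CDKN1A and MDM2 were among the genes sought by symbol but were not analysed here. Neither mitosis (24 tested) nor DNA replication (18 tested) held a DEG in any of the 3 sets.

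The medians of the collagen and valve interstitial lists changed sign with L168. Of 15 collagens tested, none was called with all libraries and the list's median log2 fold change was -0.15. Without L168, 3 rose, beside 5.59% of all tested genes, and the list's median was 0.46. Without L197 as well, none was called and the median was 0.13. COL1A1 itself went from -0.82 ± 0.70 to 1.07 ± 0.49 when L168 was left out, and passed in neither set (edgeR adjusted p = 0.869 and 0.137). Valve interstitial markers went from a median of -0.06 to 0.46 and then 0.35, with 0, 1 and 0 of 15 higher and 0, 1 and 1 lower. The lower one was LUM, lumican, a small proteoglycan that spaces collagen fibrils (-0.70 ± 0.15 without L168, edgeR adjusted p = 0.011). POSTN, a matricellular protein, had medians of 1990 CPM in Ctrl and 2940 CPM in IR/CHT and did not pass (0.42 ± 0.29, edgeR adjusted p = 0.799). ACTA2, smooth muscle actin, was at 125 CPM in L168 and at most 34.1 CPM in the other Ctrl libraries, and passed in no set. Osteogenic genes held no DEG among 12 tested. RUNX2, the osteoblast transcription factor, was at most 1.26 CPM in the 14 libraries.

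**Figure D4:**
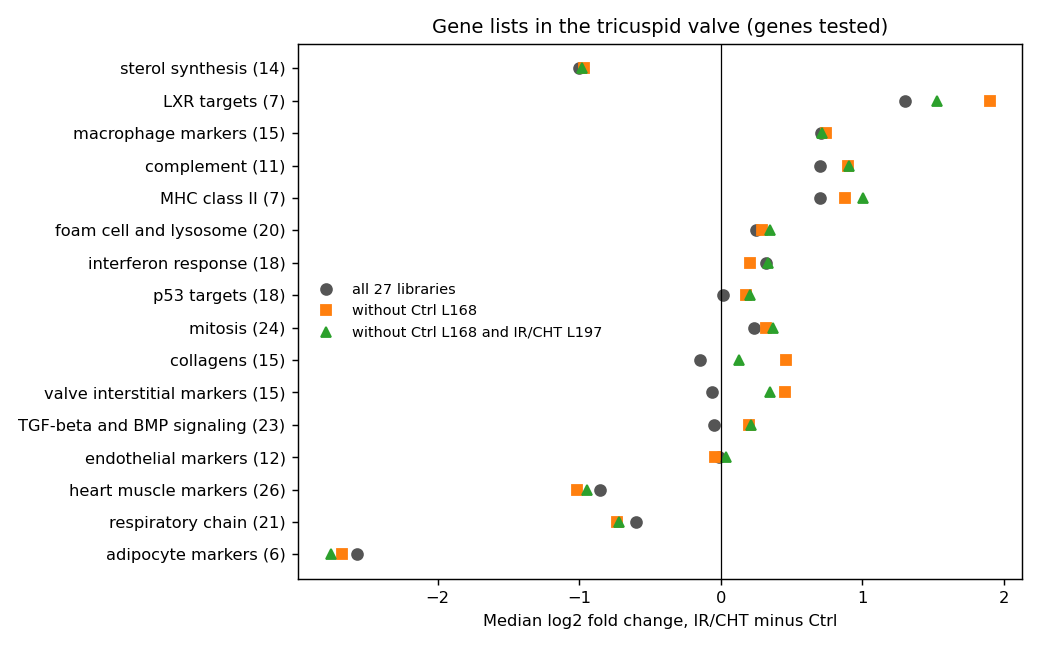
Median log2 fold change, IR/CHT minus Ctrl, of 16 gene lists in the tricuspid valve with all libraries (circles), without Ctrl L168 (squares) and without L168 and IR/CHT L197 (triangles). Brackets hold the number of genes of each list tested with all libraries. Sterol synthesis stays near -1.0 and macrophage markers near 0.71, whereas collagens move from -0.15 to 0.46 and 0.13.

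The secreted regulators FST and ITIH5 and the adhesion protein SPON1 were DEGs with no overlap between groups. FST, follistatin, which neutralises activins, had medians of 23.7 CPM in Ctrl and 9.44 CPM in IR/CHT (-1.56 ± 0.30, edgeR adjusted p = 0.012). ITIH5, a hyaluronan-associated inhibitor chain, had medians of 134 and 52.5 CPM. SPON1, spondin 1, had medians of 503 and 744 CPM (0.67 ± 0.14, edgeR adjusted p = 0.0232). The call of SPON1 ended when IR/CHT L177, Ctrl L185 or Ctrl L280 was left out, with edgeR adjusted p of 0.0722, 0.0717 and 0.0744. Groups were apart in this way for 11 of the 16 higher DEGs and 11 of the 18 lower DEGs. Over all 14700 tested genes, 18 had every irradiated valve above every Ctrl valve (0.122%) and 26 had every one below (0.177%). Without L168 these shares were 1.24% and 1.26%.

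Adipocyte genes had few reads, and 1 of 6 tested markers fell with all libraries. THRSP, a regulator of lipogenesis in adipocytes, ran from 0.713 to 12.5 CPM in Ctrl and from 0 to 0.89 CPM in IR/CHT (edgeR adjusted p = 0.0342). MC5R, a melanocortin receptor, had at most 5 reads in an irradiated valve and up to 220 in a Ctrl valve. Of the adipocyte markers, 3 fell without L168 and 2 fell without L168 and L197, beside 1.15% and 0.275% of all tested genes. The 9 adipocyte markers found summed to 15.1 to 141 CPM in Ctrl and to 8.47 to 25.8 CPM in IR/CHT. The groups overlapped, with Ctrl L264 and L159 inside the IR/CHT range and the highest sums in Ctrl L280 and L243. The 27 heart muscle markers found summed to 1270 to 53300 CPM in Ctrl with a median of 16600, and to 3300 to 25100 CPM in IR/CHT with a median of 10800. The summed level of the 21 respiratory chain genes found had medians of 3300 CPM in Ctrl and 2110 CPM in IR/CHT. The part of adjoining fat and muscle in any DEG was not tested.

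Adding irradiation to the cholesterol diet was addressed by IR/CHT against CHT, which uses no Ctrl library in the contrast. No gene passed in edgeR, with or without L168. With all libraries, at an unadjusted p under 0.05 there were 1323 genes, the smallest adjusted p was 0.451, and DESeq2 called 8 genes. Without L168 there were 3242 such genes, and the smallest edgeR adjusted p was 0.109. Without CHT L172, of the deviation described above, there were 2886 and no DEG. Values against Ctrl are set side by side, since both comparisons share the Ctrl libraries. With all libraries CHT against Ctrl had 24 DEGs (0.163% of tested genes), and IR/CHT against Ctrl had 34. Without L168 these numbers were 36 and 985 of 14614 tested genes, and the 985 moved with single libraries as described above. ABCA1 ran from 488 to 810 CPM in CHT, and its log2 fold change over Ctrl was 2.69 ± 0.21 in CHT and 2.94 ± 0.21 in IR/CHT. CYP51A1 gave -1.28 ± 0.15 and -1.44 ± 0.15, and SQLE gave -2.02 ± 0.26 and -2.03 ± 0.25. The direct difference, IR/CHT minus CHT, was 0.25 ± 0.21 for ABCA1, -0.16 ± 0.15 for CYP51A1 and -0.01 ± 0.25 for SQLE.

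No myeloid gene passed between IR/CHT and CHT in edgeR, where no gene passed at all. Of the 15 macrophage markers, 7 had an unadjusted p under 0.05 and were higher in IR/CHT than in CHT, beside 4.85% of all tested genes higher and 4.15% lower at that p, with a list median of 0.42, while the median over all tested genes was -0.01. Without L168 it was 8 of 15, beside 13.7% higher and 8.46% lower. CD14 had medians of 10.7 CPM in CHT and 18.6 CPM in IR/CHT (0.63 ± 0.21, edgeR adjusted p = 0.48). ITGAM had medians of 14.1 and 23.3 CPM (0.60 ± 0.25, edgeR adjusted p = 0.48). FST, with a median of 18.3 CPM in CHT, gave -0.99 ± 0.30 (edgeR adjusted p = 0.48). The p53 target list had a median of 0.08 in this contrast, with 1 of 18 lower at an unadjusted p under 0.05, near the share of all genes.

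The response of the tricuspid valve was then compared with that of the mitral valve, the atrioventricular valve of the left heart, by testing the difference of the responses. With all libraries 1519 of 15890 genes differed (9.56%), 514 with a higher (3.23%) and 1005 with a lower response (6.32%) in the tricuspid valve. Without L168 there were 2006, 939 higher (5.93%) and 1067 lower (6.74%), and without L168 and L197 there were 1875, 902 higher and 973 lower, so the split was nearer to even. With the rabbit as a block there were 2866, of which 1408 were among the 1519.

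Of 14 sterol synthesis genes, 2 differed between the valves, both with a higher value in the tricuspid valve, beside 3.23% of all genes higher and 6.32% lower. Without L168 it was 2, beside 5.93% higher. Without L168 and L197 it was 3, beside 902 of 15801 genes higher. These counts rest on few genes. MSMO1 gave -2.25 ± 0.23 in the tricuspid and -2.46 ± 0.24 in the mitral valve, a difference of 0.21 ± 0.32 (edgeR adjusted p = 0.777). FDFT1 fell less in the tricuspid valve, by a difference of 0.93 ± 0.31 (edgeR adjusted p = 0.0447). SQLE differed by 0.84 ± 0.30 (edgeR adjusted p = 0.0718), and passed without L168 and L197 (edgeR adjusted p = 0.0475). The SQLE medians were 21 and 37.6 CPM in tricuspid and mitral Ctrl valves, and 5.37 and 5.46 CPM in irradiated ones. ABCA1 rose less in the tricuspid valve, 2.96 ± 0.23 against 4.16 ± 0.25 (edgeR adjusted p of the difference = 0.00581). Its medians were 117 and 55 CPM in tricuspid and mitral Ctrl valves, and 814 and 1060 CPM in irradiated ones. The Ctrl levels thus also enter this difference. STARD4 fell in the tricuspid valve (-1.12 ± 0.25) and rose in the mitral valve (0.74 ± 0.25), with an edgeR adjusted p of the difference of 0.000279.

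Foam cell genes responded less in the tricuspid than in the mitral valve. Of 22 foam cell and lysosome genes tested together, 18 had a lower response in the tricuspid valve and none a higher one, beside 6.32% lower over all genes, with a median difference of -1.94 on the log2 scale, where all tested genes had -0.03. Without L168 this was 17 of 22, beside 6.74%. GPNMB ran from 15.1 to 36.1 CPM in irradiated tricuspid valves and had a median of 1940 and a highest value of 2700 CPM in irradiated mitral valves, while the Ctrl medians were 6.43 and 11.3 CPM. Its log2 fold change was 1.49 ± 0.40 and 7.19 ± 0.54 (edgeR adjusted p of the difference = 4.34e-09). CD68 gave 0.82 ± 0.25 and 3.78 ± 0.30, and ITGAM gave 1.77 ± 0.30 and 4.83 ± 0.36. SPP1 gave 0.04 ± 0.34 and 2.19 ± 0.37. Of 25 mitosis genes, 13 had a lower response in the tricuspid valve with all libraries and 12 without L168, with median differences of -1.55 and -1.47. PLAU, urokinase, gave -0.35 ± 0.20 in the tricuspid and 2.83 ± 0.23 in the mitral valve.

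**Figure D5:**
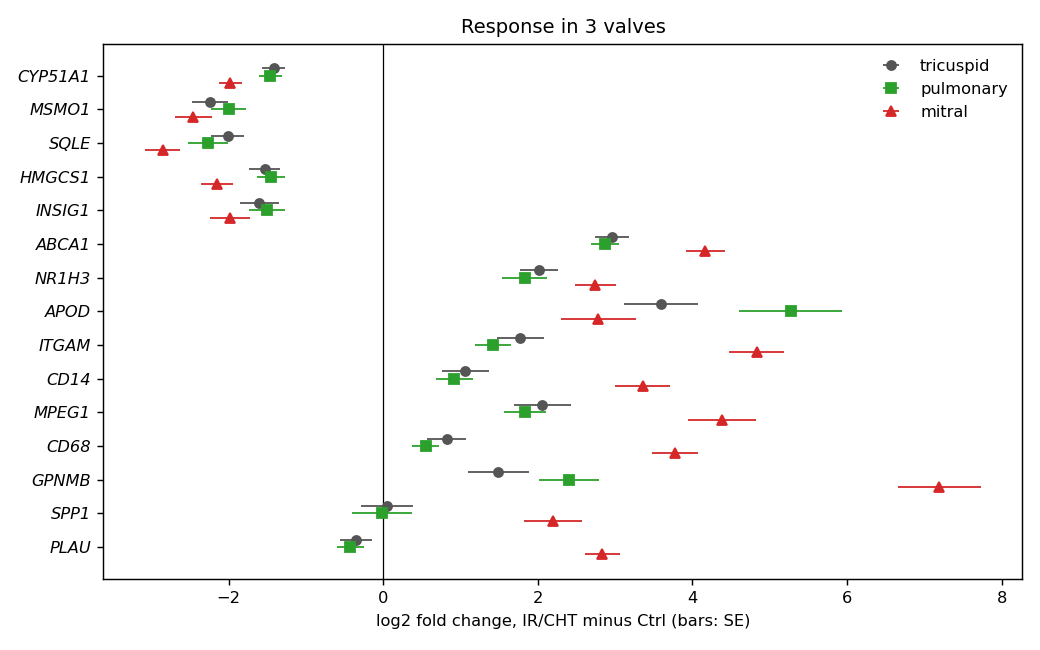
Log2 fold change, IR/CHT minus Ctrl, of 15 genes in the tricuspid (circles), pulmonary (squares) and mitral (triangles) valves, with bars of 1 SE. Tricuspid values are from the model with the mitral valve. MSMO1 is at -2.25 in the tricuspid and -2.46 in the mitral valve, whereas GPNMB is at 1.49 in the tricuspid and 7.19 in the mitral valve.

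Against the pulmonary valve, the other valve of the right heart, 1 of 15372 genes differed (0.00651%). That gene was MC5R, whose Ctrl median was 1.94 CPM in the tricuspid valve and 0.00 CPM in the pulmonary valve. With the rabbit as a block no gene passed, and none passed when L177, L181, L197, L260, L280 or L550 was left out. Without L168 there were 2. At an unadjusted p under 0.05 there were 429 genes with all libraries and 782 without L168. ABCA1 gave 2.96 ± 0.18 in the tricuspid and 2.86 ± 0.18 in the pulmonary valve, a difference of 0.09 ± 0.24. CYP51A1 differed by 0.04 ± 0.21, ITGAM by 0.33 ± 0.32 and CD68 by 0.26 ± 0.25. APOD gave -1.71 ± 0.79 and GPNMB gave -0.94 ± 0.53, and neither passed (edgeR adjusted p = 1 for both). Without L168, GPNMB gave -0.46 ± 0.48 and CD68 gave 0.45 ± 0.22.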

How the data were processed

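The authors deposited raw counts of reads per gene in 2 tables, named plate 1 and plate 2 (SMARTer Stranded Total RNA Pico libraries, bcl2fastq 2.20, nf-core/rnaseq, OryCun2.0 with Ensembl annotation). Libraries were assigned by the labels. The counts of the 27 tricuspid valve libraries were filtered by filterByExpr, scaled by TMM and fitted with edgeR 4.0.16 (R 4.3.3; robust quasi-likelihood test, Benjamini-Hochberg adjustment over all tested genes). SE is the log2 fold change divided by the square root of its F. CPM use TMM-scaled library sizes, and CPM compare samples, not genes. Differences between valves were fitted on both valves together, at adjusted p under 0.05 alone. The comparison, the 39 gene lists and the rules for naming genes were chosen with earlier results of these data known. Genes were named by lowest p: 12 DEGs in each direction, 5 more in each without L168, up to 3 DEGs or else 2 genes of each list, and 4 in each direction of the other contrasts. The 5 genes highest and the 5 lowest in L168 were added, with those of 18 genes chosen by symbol that were among the tested genes. The 2 valves of a rabbit deviated together (r over 0.1 in 19 of 26 rabbits for mitral and 23 of 27 for pulmonary valve). No 2 columns of the 14 libraries were identical. Each library is 1 rabbit. Leaving out L197, L276 and quality weights were added after seeing the data. Alternatives used DESeq2 1.42.0 and limma 3.58.1. Scripts were tested on simulated data. No reference sequence was used here, and results of some genes are not reported here.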

Additional observations from a re-analysis of the deposited data

Results flagged for a closer look

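In 26 of 128 group values checked, 1 of the 7 libraries of a group lay far from the rest by Dixon's test, where chance alone gives about 1 in 20. The gap to the nearest library, as a share of the group's range, is given for each. L168, known beforehand to weigh on the result, was the library in 16 of the 26. Its gap was 0.707 for the number of genes away from the group, and for summed gene lists it was 0.896 for neutrophil markers, 0.793 for platelet markers, 0.834 for red blood cell markers, 0.942 for cytokines, 0.752 for leukocyte adhesion, 0.616 for complement and 0.738 for p53 targets. It was 0.923 for collagens, 0.9 for matrix proteases, 0.903 for TGF-beta and BMP signaling, 0.636 for Wnt signaling, 0.729 for valve interstitial markers and 0.69 for smooth muscle markers. It was 0.728 for immediate early and heat shock genes and 0.773 for NRF2 and iron genes.

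Other Ctrl libraries stood apart for heart muscle markers (L243, highest, 0.587), CD14 (L159, lowest, 0.598) and OASL (L201, highest, 0.68). In IR/CHT, L197 stood apart for cytokines (0.611), smooth muscle markers (0.621), MYLIP (lowest, 0.593) and FDFT1 (lowest, 0.584). L276 stood apart for chemokines and receptors (0.721), L550 for LIPG (0.581) and L177 for SPON1 (0.683).

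The response to IR/CHT differed from that of the mitral valve by the edgeR interaction test in many genes. The 16 given here were among those of lowest p in this test or among the tricuspid DEGs of lowest p, as tricuspid minus mitral log2 fold change. It was 1.71 for CNGA2, 0.94 for PCNX2, 1.07 for SLC25A27, 1.51 for ABI3BP and 0.93 for FDFT1. It was -8.05 for ANO4, -3.19 for PLAU, -2.28 for MPP1, -5.71 for GPNMB, -1.21 for ABCA1, -2.32 for MPEG1, -3.06 for ITGAM, -1.86 for STARD4, -2.29 for CD14, -3.39 for OASL and -2.75 for CD84. Against the pulmonary valve MC5R passed, with a fitted value of -9.44 that is no measured size, since its median was 0 CPM in pulmonary Ctrl and in irradiated tricuspid valves.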

How the results depend on the processing

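The 22 genes followed among those of lowest p kept their direction in all 593 values recomputed for them, and passed in 534. They were chosen by p in the same libraries that most settings reuse, so a kept direction was likely beforehand. Of the 22, 0 passed within plate 2 alone and 12 passed with glmTreat. CD84 passed in 13 of 27 settings. Numbers of DEGs are given here as percentages of the genes tested, 0.231% with all libraries. DESeq2 gave 0.64%, a model of only the 2 groups 0.152%, plate 1 alone 2.06%, plate 2 alone 0%, 1 model of all 5 tissues 0.464% and glmTreat 0.102%, and leaving out 1 library gave 0.184% to 6.74%. Chosen after seeing the data, leaving out L168 and L197 gave 1.05%, leaving out L276 as well 1.21%, and limma with quality weights 3.22%. The 6.74% found without L168 became 13.1% with DESeq2, 1.01% without the filter, 2.02% with only the 2 groups, 1.57% with plate as a covariate, 2.06% in plate 1 and 0.164% with glmTreat, and ran from 0.899% to 11.9% when another library was left out. IR/CHT against CHT gave 0.0616% with DESeq2 and 0% in the edgeR settings run. CHT against Ctrl went from 0.163% to 0.385% with DESeq2. The cause of these shifts was not tested.

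The rabbit as a replicate block, which pairs the 2 valves of an animal, took the difference from the mitral valve from 9.56% to 18% (2866 genes) and that from the pulmonary valve from 1 gene to 0. Leaving out 1 tricuspid library gave 8.3% to 12.7% for the mitral and 0% to 0.0131% for the pulmonary valve. Genes near 1 CPM rest on few reads.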

Other observations

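Of the 13 mitochondrially encoded genes, 10 were found at 1 of 2 levels, with no library between them. COX2, a subunit of cytochrome c oxidase, was above 1000 CPM in 70 of the 134 libraries of the study and below 100 CPM in the other 64. Among the 14 tricuspid valve libraries, 5 held it at 2920 to 7220 CPM (3 Ctrl and 2 IR/CHT), and 8 held it at 4.96 to 29.9 CPM, with L168 at 1.28 CPM. CYTB ran from 1860 to 4480 CPM in these 5 libraries and from 2.42 to 8.92 CPM in the 8. ATP8 was at 333 CPM or more in the 5 and at 0.3 CPM or less in the 8.

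COX1, ND1 and ND2 were not split. COX1 ran from 3880 to 9870 CPM in the 5 libraries and from 2220 to 6280 CPM in the 8, and was 287 CPM in L168. ND1 ran from 674 to 1240 CPM and from 595 to 1330 CPM. The level went with the rabbit: in all 27 rabbits every library of the animal, from aorta to each valve, was on the same side, with 14 rabbits high and 13 low. The split was noticed after the data were seen, and its cause was not tested. CPM are of the library total here.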
